A study of Mus musculus with 9 samples.

Results

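A set of 1066 chromatin regions was open in every library of a p53R172H/- line and of a p53-/- line and was called in no library of a p53R245W/- line. The assay was ATAC-seq, in which a transposase, Tn5, inserts adapters into accessible DNA and clusters of insertions are called as peaks. The 9 deposited peak lists were merged wherever peaks overlapped by 1 bp or more, which gave 124230 regions, and a library called a region when at least 1 of its peaks fell there. The members were chosen by these peak calls alone, as the 1066 regions called in all 6 libraries of the first 2 lines and in 0 of 3 libraries of the third. They make up 0.858% of all regions and 2.74% of the 38836 regions called in all 6 libraries. These counts are fixed by the rule, so they describe the members and carry no test.

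The libraries come from primary murine osteosarcoma lines with 3 replicates each. 1 line carries the R172H mutant p53 allele over a null allele (p53R172H/-) and is called the R172H line here. Another has null alleles alone (p53-/-) and is called the null line. The last carries the R245W allele over a null allele (p53R245W/-) and is called the R245W line. All 3 lines therefore lack a wild-type p53 allele. They were grown in the same medium, and no treatment is named in the labels. Each genotype is represented by 1 line, so genotype and line cannot be told apart, and the labels do not say how the replicates were made. The p-values given here measure only the spread between these libraries, which may be technical. The labels name the cells as osteosarcoma cells. Of 12 osteoblast marker genes, 9 had a peak at a gene end in all 3 libraries of each line, among them Runx2, Sp7 and Col1a1, while Ibsp, Bglap and Dmp1 had none in all 3 libraries of any line.

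p53 is a transcription factor that restrains growth after DNA damage and other stress, and its loss or mutation is a common event in osteosarcoma. R172H disturbs the fold of its DNA-binding domain and R245W lies in a loop of the same domain. Open chromatin marks promoters, the short stretches at which genes start, and distal elements such as enhancers. A peak list says that a region rose above its local background in a library. A region missing from a list can still be open at a lower level.

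Several of the strongest members lay at promoters, and 6 promoter windows in members are printed so that the sequence types can be seen. Of the RefSeq promoter windows (GRCm38.p6, the 250 bases before a start), 42 windows of 40 genes overlapped a member. The windows printed were chosen after their values were seen. Each lies wholly in a member and, except for the last 19 bases of the Oas1a window, outside annotated genes. The first pair is printed 5′ to 3′ with each CG dinucleotide in capitals, for Tspyl2 (chrX:152342485-152342734, minus strand), which codes for a nucleosome assembly protein of the TSPY family, and for Dner (chr1:84696222-84696471, minus strand), which codes for a Notch-related transmembrane protein of neurons.
Tspyl2: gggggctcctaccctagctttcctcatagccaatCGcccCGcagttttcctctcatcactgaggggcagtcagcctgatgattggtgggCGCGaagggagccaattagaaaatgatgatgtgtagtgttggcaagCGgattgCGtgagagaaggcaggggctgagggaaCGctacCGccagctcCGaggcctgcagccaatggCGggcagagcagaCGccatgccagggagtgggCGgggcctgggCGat
Dner: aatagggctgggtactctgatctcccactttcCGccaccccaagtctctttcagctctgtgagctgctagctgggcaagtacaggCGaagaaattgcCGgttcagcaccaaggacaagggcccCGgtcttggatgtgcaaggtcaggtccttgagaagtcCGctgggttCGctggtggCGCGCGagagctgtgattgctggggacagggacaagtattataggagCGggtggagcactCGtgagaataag

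The Tspyl2 window held 13 CG dinucleotides and the Dner window 11. The median was 7 over the 42 member windows, 17 over the 13329 windows in regions called in all 9 libraries and 6 over all 32851 windows. Atl1 held 47, Sav1 43 and Map4k5 26, all in 1 interval on chromosome 12 that is described further on. The Fgf13 window, which is in no such interval, held 33, and the Nf1 window held 21.

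The second set shows in capitals the letters GAAA followed by any 2 bases and GAAA again, searched on both strands. They are the core of the interferon-stimulated response element, a sequence bound by interferon-activated factors. The windows belong to Isg15 (chr4:156200819-156201068, minus strand), coding for a ubiquitin-like protein, Oas1a (chr5:120907526-120907775, minus strand), coding for an oligoadenylate synthetase, Trim30a (chr7:104465194-104465443, minus strand), coding for a TRIM-family protein, and Slfn8 (chr11:83020811-83021060, minus strand), coding for a Schlafen protein. In the Trim30a and Slfn8 windows the match is on the opposite strand, and in the Isg15 and Oas1a windows matches overlap one another.
Isg15: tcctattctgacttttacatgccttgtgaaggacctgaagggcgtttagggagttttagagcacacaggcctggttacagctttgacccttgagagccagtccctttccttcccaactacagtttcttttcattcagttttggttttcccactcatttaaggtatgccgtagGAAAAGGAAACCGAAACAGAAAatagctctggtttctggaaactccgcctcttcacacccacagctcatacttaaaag
Oas1a: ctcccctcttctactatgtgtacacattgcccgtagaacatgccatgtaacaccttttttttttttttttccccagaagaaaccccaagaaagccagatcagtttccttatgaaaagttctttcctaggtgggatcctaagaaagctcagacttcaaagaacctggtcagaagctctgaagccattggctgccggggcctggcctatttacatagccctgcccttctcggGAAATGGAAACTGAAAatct
Trim30a: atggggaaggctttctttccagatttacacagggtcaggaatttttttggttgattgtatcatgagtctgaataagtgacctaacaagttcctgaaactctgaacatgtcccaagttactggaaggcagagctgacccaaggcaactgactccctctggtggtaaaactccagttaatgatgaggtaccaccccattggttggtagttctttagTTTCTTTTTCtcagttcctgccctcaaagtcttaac
Slfn8: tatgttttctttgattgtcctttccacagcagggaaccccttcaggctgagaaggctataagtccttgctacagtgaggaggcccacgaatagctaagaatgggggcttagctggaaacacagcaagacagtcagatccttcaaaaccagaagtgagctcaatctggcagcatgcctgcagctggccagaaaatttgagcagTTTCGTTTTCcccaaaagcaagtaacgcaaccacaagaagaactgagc

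Those letters occurred in 7 of the 42 member windows (16.7%), including both Slfn8 windows, which overlap each other, and those of Kcnab1 and Gm51774. They occurred in 2.98% of all windows and in 2.42% of windows in regions called in all 9 libraries. The motif was searched after the gene names had been seen, so these shares are a description. A match is no evidence of a bound factor. The GC box letters GGGCGG, searched the same way, were in 35.7% of member windows, 32.7% of all windows and 61.3% of those in regions called in all 9 libraries.

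The members were mostly weak and distal regions, with a few very strong promoters among them. Strength was read from the pile-up, the number of reads stacked at a peak's summit, which was solved from the deposited fold and p-value of each peak. In the R172H libraries the members' median pile-up was 46, 52 and 46 reads, and in the null libraries it was 40, 47 and 44. Regions called in all 9 libraries had medians of 106, 115 and 106 reads in the R172H line, 123, 141 and 131 in the null line, and 136, 153 and 140 in the R245W line. The members' median was therefore under 50% of that of the shared regions in each library that called them, and single members ranged from 14 to 523 reads.

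**Figure D1:**
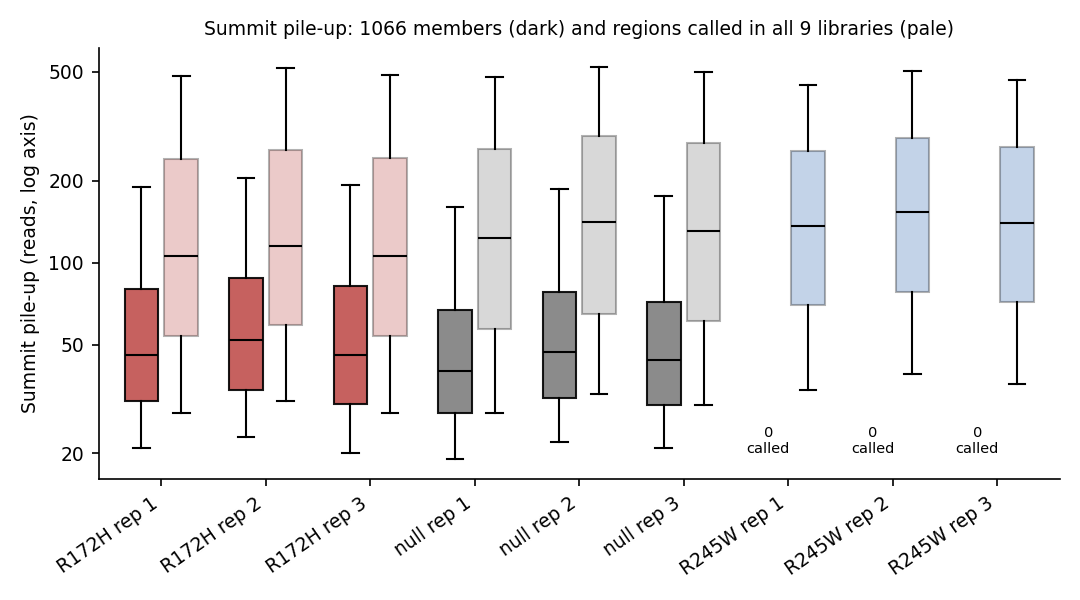
Summit pile-up in reads (log axis) in each of the 9 libraries, for the 1066 members (dark boxes) and for regions called in all 9 libraries (pale boxes); boxes span the quartiles, lines mark the medians and whiskers run from the 5th to the 95th percentile. The members' medians lie between 40 and 52 reads in the 6 libraries in which they were called, and the R245W libraries have no member peak.

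Each member's strength was also set against the other peaks of its library, as the percentile of its q-value, and the lowest of its 6 percentiles was kept. The median of that lowest percentile was 20 for the members and 53.7 for all regions called in the 6 libraries. It passed 80 in 11 members (1.03%), against 23.5% of all regions called in the 6 libraries. Members were narrower, with a median of 829 bp against 1165 bp. They lay farther from genes: 57 members (5.35%) were within 1000 bp of an end of a protein-coding gene, against 30.5% of the regions called in the 6 libraries, and the median distance to a gene end was 27.4 kb against 8.32 kb. Of the members 55.4% overlapped an annotated gene, against 65.5%. Exons, introns and UTRs are not distinguished in the annotation used here. Regions called in all R245W and null libraries and no R172H library were at gene ends in 5.42% of 7717 cases, a share close to that of the members, and the share was 11.7% of 3781 regions for those found in the mutant lines but missing from null. In the same order, these sets had median widths of 867 and 905 bp and median distances of 23.6 and 27.4 kb. A gene was overlapped by 53.6% and 51.2% of them. Over all merged regions the median width was 723 bp, the median distance 17.1 kb and the overlap 56.5%. Width, distance and gene overlap are therefore not particular to the members.

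The absence of a call was compared with what could have been called. The weakest peaks at the usual background of the R245W libraries had pile-ups of 14, 15 and 15 reads. As a ratio to the usual background, the calling floor in R245W was 2.48, the largest of the 3 libraries. The members' median lowest ratio over the 6 libraries was 5.82, also taken to the usual background. Where the local background is higher, a region needs a higher pile-up to be called, so this floor is a lower bound there. In 691 members (64.8%) the lowest ratio was above 2 times the floor, and in 220 it was above 4 times. The lists do not give the R245W level at a member, so no fold against R245W is given. Regions called in all 6 libraries and in 1 or 2 of 3 R245W libraries were of similar strength to the members. The 528 called in 1 of 3 R245W libraries had a median pile-up of 45.2 reads in the other lines and 24.5 in the R245W peak. The 769 called in 2 of 3 had 45 and 32. The 659 called in 5 of 6 libraries and in no R245W library were weaker, with a median of 36 reads, against 49 for the members.

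The members were set against the chromatin around them that was open in the R245W line. The median distance from a member to an R245W peak was 6.21 kb, with 39 members within 0.5 kb and 212 at 20 kb or more. The same distance was not computed for other regions, so it is not shown to be short or long for the members. The member beside Foxc1, a forkhead factor of skeletal development, was 0.044 kb from an R245W peak, and the member inside the start of Slit3, a secreted guidance cue, was 0.413 kb from one. At the nearest region called in all 9 libraries, the scaled R245W level over the mean of the other lines had a median log2 difference of -0.29, against -0.11 over all such regions. That neighbour was lower in R245W for 745 members (69.9%), against 59.5% of all regions called in all 9 libraries. The part of this lower surrounding level in the missing calls was not tested.

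The members were unevenly spread over the chromosomes. On chromosome 18, 105 of the 1232 regions called in all 6 libraries were members (8.52%), on chromosome 12 64 of 1356 (4.72%), on chromosome 7 96 of 2349 (4.09%) and on chromosome 11 117 of 3117 (3.75%). The lowest share was on chromosome 19, with 17 of 1270 (1.34%). The first 4 held 382 members (35.8%) and 20.7% of the regions called in all 6 libraries. The R245W level at regions called in all 9 libraries differed by a median of -0.60 (log2) on chromosome 18, -0.36 on chromosome 12, -0.38 on chromosome 7, -0.32 on chromosome 11 and -0.12 on chromosome 19. Across the 20 chromosomes Pearson's r between that level and the members' share was -0.81 and Spearman's rho -0.72, and without chromosome 18 they were -0.74 and -0.67. Both measures come from the same 9 libraries, and the values are given as a description.

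**Figure D2:**
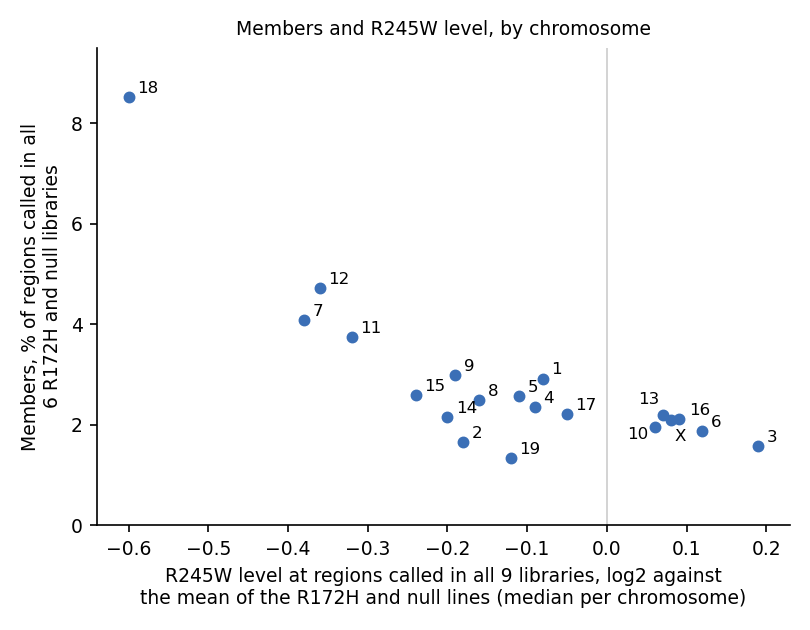
Each point is 1 of 20 chromosomes: the x axis is the median R245W level at regions called in all 9 libraries (log2 against the mean of the R172H and null lines) and the y axis the members as a percentage of regions called in all 6 R172H and null libraries. Chromosome 18 stands at -0.60 and 8.52%, and chromosomes 7, 11 and 12 follow.

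Some of the strongest members lay together in a few stretches. The genome was divided at the peaks of the 3 R245W libraries, and 7 intervals without an R245W peak held 3 or more members, 32 in all. They took in 6 of the 10 strongest members, 11 of the 30 strongest and 7 of the 11 whose lowest percentile passed 80. Of the 32 members, 25% were at a gene end, against 4.74% of the other 1034, and their median lowest percentile was 50.2 against 19.7. Another 954 members (89.5%) were alone in their interval. By the same count, 9.01% of 7717 regions missing only in the R172H line lay in such intervals. For regions missing only in the null line it was 16.1% of 3781, and for the members 3% of 1066. A larger set has more chances to place 3 regions in 1 interval, so these shares do not rank the sets by clustering.

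On chromosome 12 an interval of 353 kb (chr12:69697238-70050266, GRCm38) held 8 members. The R172H libraries had 16, 19 and 14 peaks there and the null libraries 14, 15 and 13. No R245W library had one. Among the genes in it are Cdkl1, Map4k5, Atl1 and Sav1. Sav1 codes for the scaffold of the Hippo kinases, which restrain the transcriptional coactivators Yap and Taz, and Map4k5 codes for a kinase of a family that acts on the same pathway. The member over the shared start of Map4k5 and Atl1 (chr12:69892317-69893770) had pile-ups of 372, 401 and 418 reads in the R172H libraries and 312, 343 and 357 in the null libraries. The R172H values were all above the null values. The member at the Sav1 start (chr12:69986392-69987602) had 276, 241 and 277 reads in R172H and 248, 272 and 287 in null, which overlap. Shared regions within 1000 kb of the interval had a median R245W level of -0.15 (log2), close to the -0.11 over all shared regions.

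On chromosome 11 an interval of 229.9 kb (chr11:79265076-79494946) held 6 members and the start of Nf1, which codes for neurofibromin, a GTPase-activating protein that switches Ras off. The R172H libraries had 12, 10 and 12 peaks in it and the null libraries 9, 10 and 8. The member at the Nf1 start (chr11:79338851-79340794) had 333, 342 and 316 reads in R172H and 342, 378 and 366 in null. The nearest R245W peak was 73.8 kb away. The other end of Nf1 had a peak in all 3 R245W libraries. A member 32.1 kb before the start (chr11:79305845-79307485) was higher in null, with 276, 290 and 254 reads against 96, 108 and 94 in R172H. Shared regions around the interval had a median R245W level of -0.30.

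On the X chromosome an interval of 154 kb (chrX:152234595-152388768) held 5 members. The R172H libraries had 10, 9 and 9 peaks there and the null libraries 5, 5 and 6. It covers Tspyl2 and Gpr173, an orphan receptor gene, and a part of Kdm5c, which codes for a histone H3 demethylase. The member at the Tspyl2 start (chrX:152341735-152343092) was the strongest of all 1066 by its lowest percentile (95.2), with 403, 435 and 391 reads in R172H and 395, 448 and 442 in null. These ranges overlap. A member at the start of Gpr173 (chrX:152368161-152369718) had 160, 153 and 162 reads in R172H and 41, 41 and 30 in null. Shared regions within 1000 kb numbered 13, with a median R245W level of -0.09.

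**Figure D3:**
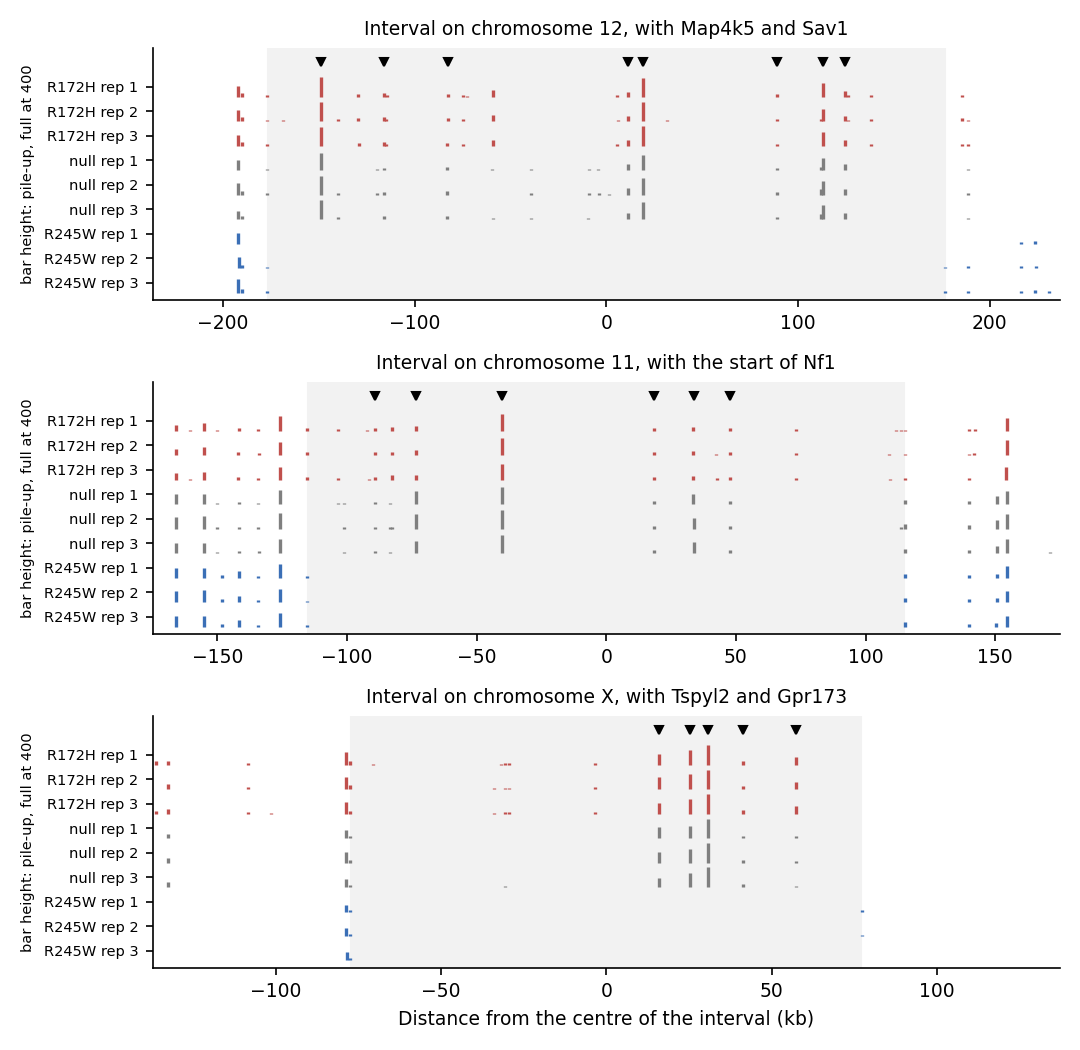
Peaks of each library (rows; bar height is the pile-up, full at 400 reads) against distance in kb from the centre of the 3 intervals with the most members; grey marks the stretch between the neighbouring R245W peaks and triangles the members. The R172H and null rows hold peaks across each grey stretch, and the R245W rows hold none.

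The other 4 intervals lay in chromatin with a lower R245W level. The interval on chromosome 7 (chr7:72939696-73096709) held 4 members and no protein-coding gene, and shared regions around it had a median R245W level of -1.43. For an interval on chromosome 12 inside and beyond Eipr1 (chr12:28805630-29290636) that value was -0.61, and for the intervals on chromosome 9 (chr9:23083919-23157089 and chr9:51336072-51397392) it was -0.68 and -0.69. By its lowest percentile (69.1) their strongest member was at chr12:29265292-29266046, with 98, 87 and 94 reads in R172H and 108, 135 and 117 in null. The member at chr9:51369376-51370399 had 292, 368 and 314 reads in R172H and 80, 99 and 77 in null.

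Outside the intervals a few members stood out by strength. The member inside Clcn4 (chr7:7298083-7299651), a gene for a chloride-proton exchanger, had 391, 416 and 407 reads in R172H and 375, 414 and 382 in null. The member inside Impact on chromosome 18 (chr18:12972851-12974592), an imprinted gene in the mouse, had 314, 303 and 289 reads in R172H and 376, 392 and 398 in null. A distal member 34.9 kb from Hunk (chr16:90349415-90350346), a gene for an AMPK-related kinase, had 246, 277 and 270 reads in R172H and 216, 232 and 218 in null. A member 242 kb from Fn1, the fibronectin gene, had 319, 346 and 318 reads in R172H and 227, 280 and 255 in null. In all of these except Clcn4 the pile-ups of the lines, which are not scaled for depth, did not overlap. After scaling, the Impact member differed by -0.09 ± 0.06 (log2, SE, limma adjusted p = 0.154) and did not pass the test.

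Of the 62 genes with a member at an end, 42 had no R245W peak at either end and 17 had one in all 3 R245W libraries. Among the 42 are Isg15, Oas1a, Slfn8 and Trim30a, which interferon, the antiviral signal, is known to induce. They and the related genes of this paragraph were named after their values were seen. No list of interferon-induced genes was counted, so no share over all genes stands beside them. The rule allows no R245W peak in the member itself, so the count of 42 is partly fixed by it. It was not set against a share over all genes. Among the 42, Ebf3 and Myoz2 also had no null peak at an end by the same measure. A RefSeq start of Ebf3, of Esyt2 and of Evi5 lay in a region called in all 3 R245W libraries. The Isg15 start (chr4:156200675-156201156) had 183, 187 and 162 reads in R172H and 164, 206 and 193 in null, and an R245W peak lay 1.63 kb away. The Oas1a start (chr5:120906718-120907818) had 123, 134 and 127 reads in R172H and 27, 35 and 26 in null, with the nearest R245W peak at 29.8 kb. The Slfn8 start (chr11:83019815-83021129) was the other way round, with 27, 24 and 21 reads in R172H and 105, 113 and 99 in null. The Trim30a start (chr7:104464751-104465783) had 46, 66 and 47 reads in R172H and 51, 71 and 65 in null. A second RefSeq start of Trim30a lay in a region called in all 3 R245W libraries. Members also lay at the start of Trim12a, at Il4i1 and at an end of Cd74, and within 50 kb of the chemokine genes Cxcl10 and Ccl5. Cd74, the invariant chain of MHC class II, had a peak within 1000 bp of an end in all 3 R245W libraries, and the nearest R245W peak was 0.582 kb from the member.

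**Figure D4:**
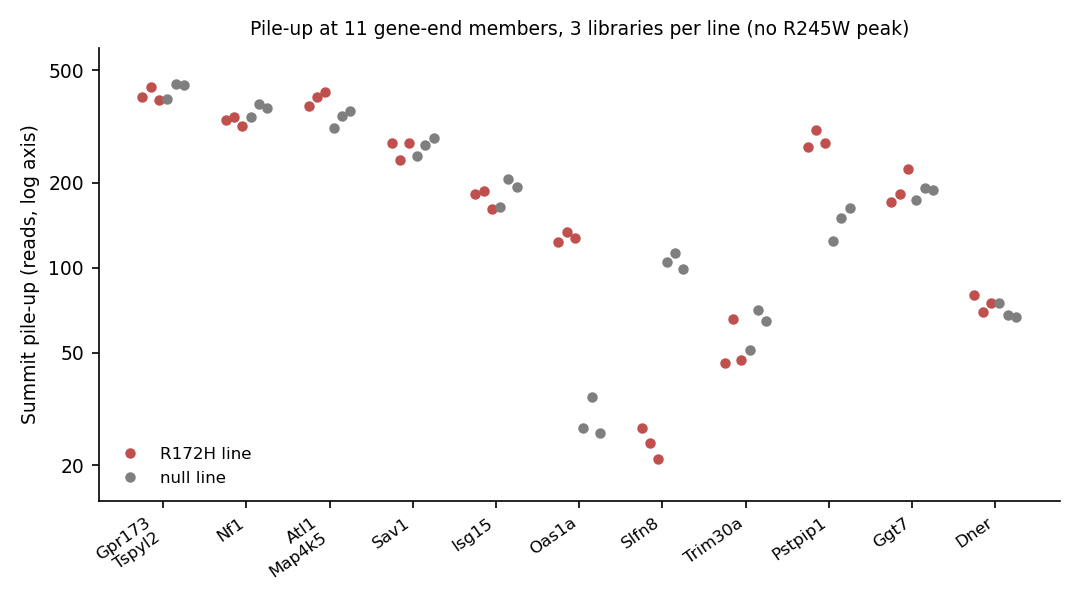
Summit pile-up in reads (log axis) of 11 members at gene ends, chosen for display after their values were seen, 1 point per library, for the R172H line (red) and the null line (grey); the R245W line has no peak there. The Tspyl2, Nf1 and Map4k5 members lie above 300 reads in all 6 libraries, while Oas1a is higher in R172H and Slfn8 higher in null.

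Members were assigned to the nearest protein-coding gene end within 50 kb, which placed 703 members at 653 genes, 4.54% of the 14369 genes with a region called in all 6 libraries. Of these genes 609 had 1 member, 38 had 2 and 6 had 3. Members more than 50 kb from a gene end are left out of these counts, also where they lie inside a long gene such as Slit3. Genes near more regions have more chances to hold a member, so the share of regions is given beside the share of genes, against 2.2% over all genes. Among the matrix genes 11 of 40 had a member, 6.25% of their regions. They include Col6a3 (26, 28 and 20 reads in R172H, 180, 211 and 178 in null), Col8a1 (146, 137 and 143 against 27, 37 and 35) and Col12a1 (112, 115 and 115 against 43, 49 and 55), all genes for collagen chains. The Dcn member, near the gene for the proteoglycan decorin, had 122, 130 and 104 reads in R172H and 141, 148 and 148 in null. None of the matrix members was at a gene end.

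Among the axon guidance and adhesion genes 7 of 34 had members (9% of regions): Efna5, Nrp2, Pcdh9, Robo1, Sema3c, Sema3d and Slit3. Among cytokine and chemokine genes it was 5 of 24 (6.85% of regions), namely Ccl5, Csf1, Cxcl10, Cxcl5 and Il33. The Hippo list had 4 of 30 (3.97%), Lats2, Nf2, Ptpn14 and Sav1, and the Ras brakes 3 of 18 (6.25%), Dusp4, Nf1 and Rasa3. Of the osteoblast genes 2 of 20 had members (3.95%), Runx2, the master factor of bone formation, and Alpl, alkaline phosphatase. Runx2 was assigned 2 distal members, 1 inside both Runx2 and Supt3 and 1 inside Supt3 alone, and Alpl was assigned 1. Other members inside Runx2 lay more than 50 kb from a gene end and were not counted. Lists with no member were the p53 targets (0 of 28 genes), Notch (0 of 23), Hox (0 of 25), Hedgehog (0 of 13), mesenchymal transition factors (0 of 12) and the chondrocyte (0 of 15), adipocyte (0 of 7), epithelial (0 of 12), leukocyte (0 of 7), skeletal muscle (0 of 4) and housekeeping genes (0 of 19). The lists without a member held 10 (skeletal muscle) to 75 (Notch) regions called in all 6 libraries, and the p53 targets held 61. At the 2.2% over all genes few members would fall in so few regions, so these counts of 0 are not read as a result. BMP and TGF-beta genes had 3 of 42 (Smad2, Smad7 and Tgfbr3, 2.88% of regions) and Wnt genes 2 of 57 (Axin2 and Wnt11, 1.91%). Osteosarcoma tumour suppressors and oncogenes had 5 of 29 (7.37% of regions), among them Nf1, Nf2 and Runx2 of the lists above. Endothelial genes had 1 of 7 (4.55%), smooth muscle and pericyte genes 1 of 13 (2.56%) and chromatin enzymes 3 of 43 (2.54%). Below 2.2% were also AP-1 (1 of 15, 2.04%), limb and skeletal patterning (2 of 50, 1.42%) and receptor tyrosine kinases (1 of 40, 0.725%). These shares are counts beside a background and were not tested, and the lists were chosen with earlier results known.

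The comparison that the rule left free was R172H against null, both of which call every member. Pile-ups were scaled to regions called in all 9 libraries and compared by limma with Benjamini-Hochberg adjustment over the 38836 regions called in all 6 libraries. Of the 1066 members 818 differed (76.7%) at an adjusted p of 0.05, against 78.1% of all regions tested. Of them 575 (53.9%) were higher in R172H and 243 (22.8%) higher in null, against 50.8% and 27.4% of all regions. The median difference was 0.39 (log2, R172H minus null) for the members and 0.22 for all regions tested. That shift of all regions depends on the scaling: with the usual background as the scale, the medians were 0.24 and 0.07, and 491 members were called higher in R172H and 271 higher in null. Over all regions the calls were 19720 higher in R172H and 10623 higher in null, against 15451 and 12967 with the usual background as the scale and 10004 and 9498 with the deposited fold ratio. With that ratio 440 members were called higher in R172H and 235 higher in null. A small difference is therefore read against 0.22. Differences past 4-fold were found in 100 members (9.38%), 79 higher in R172H and 21 higher in null, against 5.65% of all regions. That 5.65% was not split by direction, and the split of 79 and 21 was not recomputed with the other scales. Of the members called at any fold 70.3% were higher in R172H, against 65% of all called regions.

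**Figure D5:**
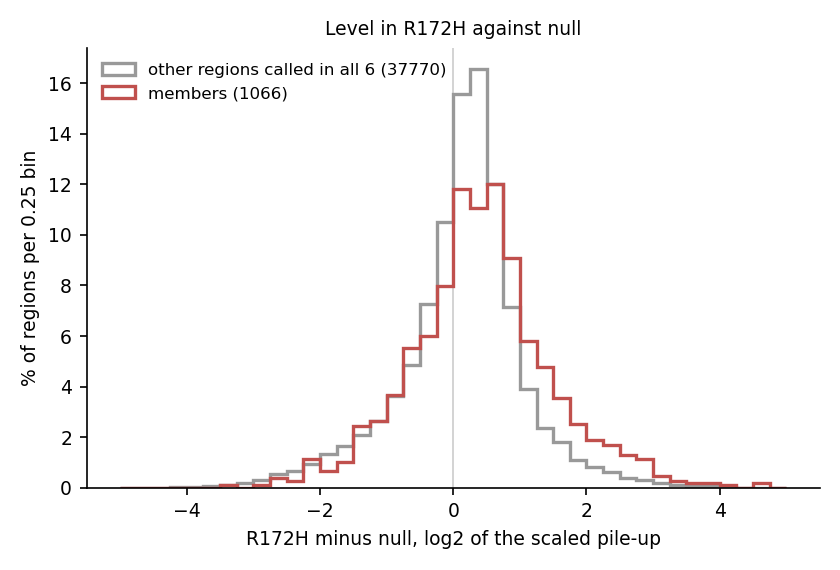
Distribution of the difference between the R172H and null lines (x axis, log2 of the scaled pile-up; y axis, percentage of regions per bin) for the members and for the other regions called in all 6 libraries. The members' median is 0.39, and 79 members lie past 4-fold on the right and 21 on the left. This split was not counted for the other regions.

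The largest difference between the R172H and null lines was 4.75 (log2), at a distal member whose nearest gene was Thbs1, the thrombospondin gene, with 511, 496 and 523 reads in R172H and 25, 21 and 23 in null. Among members within 50 kb of an end of a named gene, those of Pcdh9 and Sh3tc2 differed most toward R172H. Those of Dipk1c and Htr4 differed most toward null. The Rbpms member given below (2.98) came after members near Pced1b (3.67), at an end of Cacna1h (3.45) and near Ypel5 (3.43). Inside Pcdh9, a protocadherin gene, a member 48.2 kb from a gene end (chr14:93061876-93063031) had 386, 408 and 369 reads in R172H and 18, 23 and 21 in null. Its difference was 4.51 ± 0.11 (log2, SE, limma adjusted p = 9.88e-40). At an end of Sh3tc2 on chromosome 18, a gene of Schwann cell myelination, a member had 321, 347 and 332 reads in R172H and 26, 34 and 29 in null (3.77 ± 0.11, limma adjusted p = 2.22e-37). Inside Rbpms, an RNA-binding protein gene with 3 members, the strongest had 430, 494 and 443 reads against 76, 71 and 63. In the other direction, a member near Dipk1c (chr18:84730257-84731199) had 25, 17 and 22 reads in R172H and 220, 263 and 264 in null (-3.29 ± 0.13, limma adjusted p = 1.13e-29). A member near Htr4, a serotonin receptor gene, had 32, 44 and 32 reads in R172H and 291, 339 and 348 in null. The groups did not overlap in any of these.

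The members at gene starts in the 3 leading intervals differed unequally between the lines. At the Gpr173 start the limma difference was 2.37 ± 0.13 (adjusted p = 3.37e-24). At the Cdkl1 start it was -0.21 ± 0.13 (adjusted p = 0.151). The limma difference was 0.14 ± 0.06 at Nf1 (adjusted p = 0.0261), 0.25 ± 0.07 at Sav1 (adjusted p = 0.00146) and 0.21 ± 0.05 at the Tspyl2 start (adjusted p = 5.85e-04), none of them far from the 0.22 shift of all regions. It was 0.51 ± 0.06 at Map4k5 and Atl1 (adjusted p = 5.04e-11). Of the 32 members in intervals 16 were called higher in R172H and 4 higher in null, with a median of 0.23. Of all regions tested 50.8% were called higher in R172H and 27.4% higher in null, so the R172H count is near the share over all regions. Among the interferon-linked starts the difference was 2.41 at Oas1a and -1.87 at Slfn8 (limma adjusted p = 1.83e-23 and 2.78e-17), and 0.19 at Isg15 and 0.03 at Trim30a (limma adjusted p = 0.0206 and 0.849). In bulk libraries, fewer cells with a region open and a lower level in each cell cannot be told apart.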

How the data were processed

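ATAC-seq was measured in 9 libraries of 3 lines. Per the submitters' processing notes reads were handled with Trimmomatic 0.33 after bcl2fastq 2.17, and Bowtie 1.1.2, deepTools and MACS2 2.1.0 are also listed, with build GRCm38. The sources used here do not give any Tn5 shift, duplicate removal, pooling or calling settings. The lists hold 65199 to 79424 peaks. Per peak, the authors deposited a score (10 times −log10 q), the fold enrichment (a ratio of pile-up to local background), −log10 p and −log10 q, and the summit's offset. No read totals are in the lists, so depth is known only through the usual background, the most frequent local background, of 4.77 to 6.39 reads. Pile-up and background were solved from the deposited fold and −log10 p as a Poisson tail, and 0 to 3 peaks per library were not solved within 0.001. Recovery, merging and limma were tested on simulated data. Positions are GRCm38, and gene ends are RefSeq GRCm38.p6 protein-coding genes.

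The members and lists were chosen with earlier results of these data known. Named members were the genes with most members, the strongest at and away from gene ends, those in intervals, and list genes with a member at an end or several members. One member that the rule names is not reported here. Others are named as extremes or after their values were seen. R172H against null was fitted with limma 3.58.1 (R 4.3.3) on log2 pile-up, with a mean-variance trend and no replicate block. The rest ran in Python 3.11.15 with pandas 2.3.3, scipy 1.17.1, matplotlib 3.10.9 and numpy 2.4.6. Alternatives covered the q-value limit, list length, summit windows, overlap, call rule, gene end distance, scaling, block and left-out libraries.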

Additional observations from a re-analysis of the deposited data

How the results depend on the processing

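The limits come from the lists: a region without a peak has no value, so weak openness in R245W is not detectable. The count of members was 1066. It was 1866 when 2 or 3 of 3 libraries sufficed in each of the R172H and null lines, and 684 without chromosomes 7, 11, 12 and 18, an alternative chosen after seeing the data. With lists of equal length the count was 1597, and with 0 or 1 of 3 R245W libraries it was 1594, both only just within 1.5 times 1066. Leaving out 1 library gave 1140 to 1311 members. The share at a gene end (5.35%) was 6.89% with lists of equal length, 7.3% with summit windows of 250 bp either side and 9.94% with gene ends within 2500 bp, and 5% to 5.75% without 1 library. The share in intervals with 3 or more members (3%) was 2.13% with lists of equal length, 10.5% for 2 or more members, 1.78% for 5 or more and 1.61% without chromosomes 7, 11, 12 and 18, and 2.59% to 3.28% without 1 library. It was not computed for regions called in 0 or 1 of 3 R245W libraries. The counts with a looser call rule or without chromosomes follow from the setting itself. So do the shares with a wider gene end distance or another number of members per interval. The cause of the other moves was not tested. The number of members that differed between R172H and null (818) was 99 of 110 when only regions above the median level were tested, since fewer members were tested, and 774 to 784 without 1 library. With the replicate block it was 816. Over all regions 30343 differed, and 19502 with the deposited fold ratio. Replicate numbers do not pair the samples: correlations of their deviations lay between -0.02 and 0.02. The other settings tried left these 4 results within 1.5 times or within the counting interval. Without the mean-variance trend, a setting added after seeing the data, 826 members differed.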
